A study of Mus musculus with 30 samples.

Results

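A set of 760 genomic regions had a peak of acetylated lysine 27 of histone H3 (H3K27ac) in 3 of 4 peak lists and lacked one only in the list of CK1750 cells grown with the solvent DMSO. To find them, overlapping or touching peaks of the 4 deposited lists were merged on chromosomes 1 to 19 and X into 37671 regions. A region was kept when it overlapped a peak of drug-treated CK1750 and of both Tnm2 lists, and no peak of CK1750 with DMSO. The regions were thus chosen by the presence and absence of peaks in these same lists, and peak scores and widths are given as a description without a test. The patterns of the other lists were 12885 regions in all 4 lists, 538 missing only in CK1750 with UNC0638 and, for Tnm2, 302 missing only with DMSO and 3261 only with the drug.

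CK1750 and Tnm2 are mouse lung adenocarcinoma cell lines. Both were cultured in DMEM with 10% fetal bovine serum and received either DMSO or 1 µM UNC0638, which blocks G9a and Glp, enzymes that methylate histones. CK1750 resembles tumor-propagating cells and carries high surface Sca-1 (encoded by Ly6a), whereas Sca-1 is low in Tnm2. Of the 9 H3K27ac samples, 5 were CK1750 (3 given DMSO and 2 the drug) and 4 Tnm2 (2 and 2), and each group had 1 list. The CK1750 DMSO samples bore 2 replicate numbers and the CK1750 UNC0638 samples bore 1, so that drug and replicate cannot be told apart in this line. Because a group had 1 list, there is no spread between replicates and no test of one group against another. Each line is 1 cell line of its kind, and in bulk chromatin a mark in fewer cells cannot be told apart from less of the mark in each cell.

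H3K27ac sits on nucleosomes beside active promoters and enhancers, the distal elements that raise transcription of a gene from a distance. G9a and Glp place mono- and di-methyl groups on lysine 9 of the same histone tail, a mark of silent chromatin. Inhibitors such as UNC0638 lower that mark. The regions described here had a peak in the low Sca-1 line with and without the drug, and in the high Sca-1 line in the list made with the drug but not in that made with DMSO.

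The labelled lung adenocarcinoma origin was checked at the start sites of marker genes. Cdh1, Krt8, Krt18 (epithelial), Nkx2-1 (lung lineage) and Vim (mesenchymal) had a peak within 1 kb of a transcription start site (TSS) in all 4 lists. Epcam and Sftpc, which mark epithelium and alveolar type 2 cells, had none in any list, and neither had the blood marker Ptprc nor the endothelial marker Pecam1. The lists held 27340, 24592, 30631 and 18789 peaks on these chromosomes in the order CK1750 untreated and treated, then Tnm2 untreated and treated. The scores, the negative log10 of the caller's P value times 10, started at 50, and read depth is unknown. Where 3 scores are given for a region without further words, they are those of treated CK1750, untreated Tnm2 and treated Tnm2, in that order.

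Sequences of 4 of the highest ranked regions show what these elements look like. The middle 300 bases are given for 2 distal regions, which lay between genes 3.94 kb from the Cdc42ep2 start (chr19:5929704-5930003) and in an intron of Ablim1 (chr19:57079381-57079680). They are read from the plus strand of mm10 (GRCm38.p6), and capitals mark matches to the motifs searched.
Cdc42ep2: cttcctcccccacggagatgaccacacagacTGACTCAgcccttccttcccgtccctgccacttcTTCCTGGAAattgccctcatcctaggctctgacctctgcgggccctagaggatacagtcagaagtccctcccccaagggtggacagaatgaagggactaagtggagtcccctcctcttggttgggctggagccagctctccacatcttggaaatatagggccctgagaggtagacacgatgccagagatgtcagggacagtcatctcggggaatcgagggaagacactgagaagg
Ablim1: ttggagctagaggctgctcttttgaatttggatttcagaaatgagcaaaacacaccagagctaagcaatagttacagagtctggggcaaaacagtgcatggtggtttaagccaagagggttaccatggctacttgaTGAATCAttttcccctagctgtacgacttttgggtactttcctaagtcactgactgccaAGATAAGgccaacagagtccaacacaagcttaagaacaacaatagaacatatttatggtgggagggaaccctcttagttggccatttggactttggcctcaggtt
The Cdc42ep2 window held an AP-1 motif (TGANTCA) and a STAT motif (TTCCNGGAA), and the Ablim1 window an AP-1 and a GATA motif (AGATAAG). In all, 18 motifs were searched, and a match is a description of the letters only.

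At promoters, the 250 bases before a RefSeq start are given for the regions at Zbtb7b (chr3:89387672-89387921) and one of the Cidec starts (chr6:113434765-113435014), both 5′ to 3′ on the minus strand, and here capitals mark CG pairs, the sites of DNA methylation that are dense in CpG islands.
Zbtb7b: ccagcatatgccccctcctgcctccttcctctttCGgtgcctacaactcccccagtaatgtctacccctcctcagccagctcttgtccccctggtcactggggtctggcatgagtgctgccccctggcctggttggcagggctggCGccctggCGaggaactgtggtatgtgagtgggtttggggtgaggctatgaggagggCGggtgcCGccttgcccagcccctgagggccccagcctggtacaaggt
Cidec: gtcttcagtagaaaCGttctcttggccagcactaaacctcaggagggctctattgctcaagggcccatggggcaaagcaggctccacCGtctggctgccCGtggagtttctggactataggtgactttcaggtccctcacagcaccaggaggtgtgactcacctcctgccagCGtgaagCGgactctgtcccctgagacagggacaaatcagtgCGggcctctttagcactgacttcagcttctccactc
The Zbtb7b sequence held 5 CG pairs and the Cidec sequence 6, against a median of 6 among 32851 upstream sequences of the same length in the RefSeq promoter table.

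The regions missing only in CK1750 with DMSO were weak peaks in CK1750 with UNC0638 and average peaks in Tnm2 with DMSO. In CK1750 with UNC0638 the highest score of a region reached at most 462, with a median of 85.6 that lay at percentile 25.5 of that list's peaks. The median was 140 in Tnm2 with DMSO (percentile 49.8) and 78.7 in Tnm2 with UNC0638 (percentile 29.8). These values come from the lists that chose the regions, and since a score grows with depth they rank peaks within a list only. The regions missing only in CK1750 with UNC0638 had a like profile, with a median percentile of 49.1 in the untreated and 27.6 in the treated Tnm2 list and quartiles at percentiles 14.2 and 39.7 in the CK1750 DMSO list, against quartiles at 13.6 and 36.6 in the CK1750 UNC0638 list here. The score in CK1750 with UNC0638 was under 100 in 487 regions (64.1%). All 3 scores reached 100 in 86 regions (11.3%), 150 in 15 and 200 in 2.

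**Figure D1:**
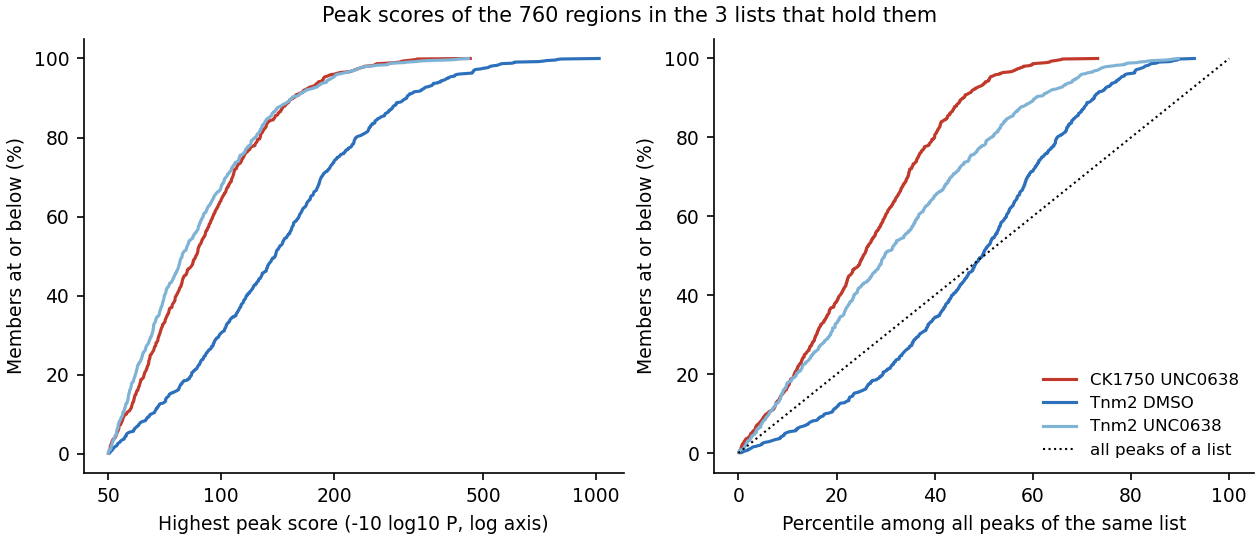
Cumulative share of the 760 regions by their highest peak score in each of the 3 lists that hold them (left, log axis) and by its percentile among all peaks of the same list (right; the dotted diagonal is a list's own peaks). The CK1750 UNC0638 and Tnm2 UNC0638 curves lie above the diagonal, with medians at percentiles 25.5 and 29.8, and the Tnm2 DMSO curve crosses it near its median at percentile 49.8.

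Tnm2 with DMSO gave the region's higher percentile in most cases. Its percentile exceeded that of CK1750 with UNC0638 in 615 of 760 regions (80.9%) and that of Tnm2 with UNC0638 in 589 (77.5%). This was not particular to the set. In regions of all 4 lists the median percentile was also highest in Tnm2 with DMSO (78.0). It was 72.7 in CK1750 with UNC0638 and 63.7 in Tnm2 with UNC0638. Scores of the Tnm2 lists were related to each other across regions (Spearman's rho 0.43, n = 760), and those of CK1750 with UNC0638 were hardly related to either Tnm2 list (0.11 and 0.11). The regions are not independent replicates and the coefficients are descriptions. The rule left few high CK1750 UNC0638 scores (at most 462), so the coefficients cannot be compared between the lines. In 651 regions (85.7%) each of the 3 lists contributed a single peak, and in 742 (97.6%) a base was covered by peaks of all 3 lists.

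The edge of the rule is the caller's cutoff. Just inside it were a region near Irs2 with a CK1750 UNC0638 score of 50.03 and a region near Creld1 with 50.04. Just outside were regions near Cdkn2aipnl and Gna14, which CK1750 with DMSO held at scores of 50.04 and 50.05 beside 53.17 and 82.62 with UNC0638.

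Among the 13645 regions with peaks in the other 3 lists, 760 lacked a CK1750 DMSO peak, or 5.57% (Wilson 95% interval 5.20 to 5.97%, which like all intervals here covers counting error only). Of all 37671 merged regions, 4435 had a peak in CK1750 with UNC0638 and none with DMSO (11.8%), which is 19.2% of the 23062 regions with a CK1750 UNC0638 peak. A DMSO peak of Tnm2 without one of CK1750 was found in 9882 (26.2%). The 760 regions satisfy both.

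The share without a CK1750 DMSO peak depended steeply on the score of the drug-treated list and, at a like score, on place. Away from promoters (over 1 kb from any TSS) it was 44.6% (245 of 549) at CK1750 UNC0638 scores of 50 to 75, 20.3% (155 of 765) at 100 to 150 and 0.703% (6 of 853) at 300 to 500. At promoters it was 24.9% (47 of 189), 7.38% (31 of 420) and 0.0686% (1 of 1458) in the same classes. The intervals for promoters and other places did not overlap in the classes from 50 to 300. None of 5967 regions with a score of 500 or more lacked the DMSO peak, which allows a share of up to 0.0643% by the Wilson interval.

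**Figure D2:**
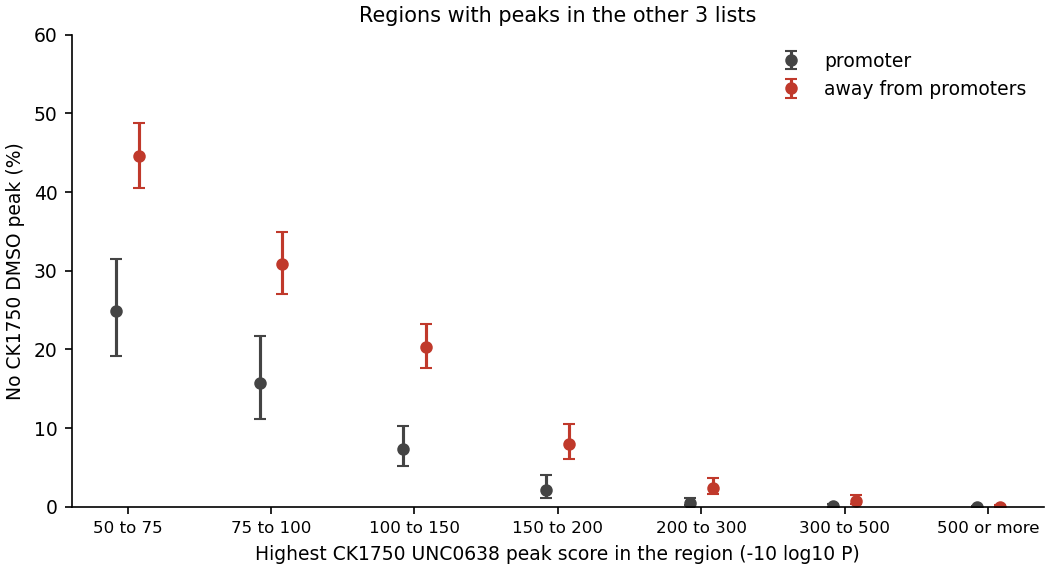
Share of regions without a CK1750 DMSO peak (vertical axis, %) among those with peaks in the other 3 lists, by the highest CK1750 UNC0638 score of the region (horizontal axis), for promoters (grey) and regions away from promoters (red). Points are shares and bars Wilson 95% intervals. From 50 to 75 the shares were 24.9% and 44.6%, and at 500 or more both were 0.

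The mirror case was less frequent. Of 13423 regions with peaks in CK1750 with DMSO and both Tnm2 lists, 538 lacked a CK1750 UNC0638 peak (4.01%, 3.69 to 4.35%). The CK1750 DMSO list was the longer one (27340 peaks against 24592), while the UNC0638 list covered more sequence (31.6 Mb against 28.5 Mb).

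Most of the regions were distal. Of the 760, 121 were at a promoter (15.9%, 13.5 to 18.7%), against 34.8% of all merged regions and 62.6% of those in all 4 lists. The centre lay in an intron in 49.6% and between genes in 32.6%, and 371 (48.8%) were over 10 kb from any TSS. The median distance to a TSS was 9.61 kb, against 5.29 kb for all regions. Promoters made up 20.3% of the regions missing only in CK1750 with UNC0638, 26.5% of those missing only in Tnm2 with DMSO and 45.6% of those missing only in Tnm2 with UNC0638.

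The promoter share was also lower among peaks of like score. Among regions with a CK1750 UNC0638 score of 50 to 100, promoters were 15.6% of the 487 without a DMSO peak (12.7 to 19.1%) and 30.5% of the 973 in all 4 lists (27.7 to 33.5%).

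**Figure D3:**
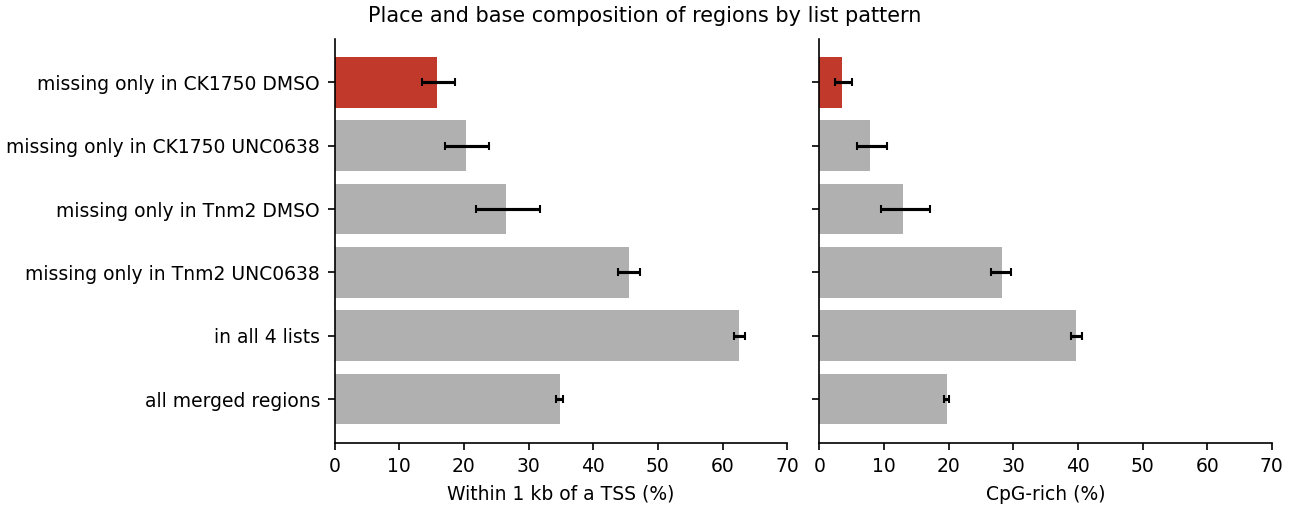
Share of regions within 1 kb of a TSS (left, %) and share that were CpG-rich (right, %, observed over expected CG above 0.6 and GC above 50%) by the list that lacked a peak. Bars are shares with Wilson 95% intervals. The regions missing only in CK1750 with DMSO (red) are lowest on both axes, at 15.9% and 3.55%.

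Median GC content was 49.0% against 50.3% in all merged regions and 52.8% in regions of all 4 lists. CpG-rich sequence, with an observed over expected CG ratio above 0.6 and over 50% GC, made up 3.55% of the 760, against 19.7% and 39.7%. Regions missing only in CK1750 with UNC0638 had 49.0% GC and were CpG-rich in 7.81%. The values were 49.2% and 12.9% for those missing only in Tnm2 with DMSO, and 51.4% and 28.2% with UNC0638. At promoters alone CpG-rich sequence made up 21.5% (26 of 121, 15.1 to 29.6%), against 61.8% (60.8 to 62.9%) of the 8072 promoters in all 4 lists. For promoters missing only in CK1750 with UNC0638 the share was 34.9% (26.6 to 44.2%), an overlapping interval, and only in Tnm2 with UNC0638 58.5%. Among promoters with peaks in the other 3 lists, 0.518% of the CpG-rich ones (26 of 5017) and 2.99% of the others (95 of 3176) lacked the CK1750 DMSO peak. Within CK1750 UNC0638 scores of 50 to 100 the shares were 13.0% (8.17 to 20.1%) and 24.0% (19.1 to 29.7%).

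Motifs were searched in the middle 500 bases on both strands. AP-1, bound by Fos and Jun dimers, was found in 24.6% of the 639 regions away from promoters (21.4 to 28.1%), against 24.7% of all such regions and 29.4% of those in all 4 lists. TEAD (GGAATG), bound by the partners of YAP, was found in 29.6% against 28.3% and 31.4%. The GATA motif was found in 9.55% (7.50 to 12.1%) against 7.50% (7.18 to 7.84%), NKX2 (CACTTNA) in 23.9% against 24.0%, and C/EBP (TTGCNNAA) in 18.9% against 17.7%. SP/KLF (GGGCGG), common in CpG islands, was found in 12.8% of the 760 and 28.9% of all merged regions, and in 9.70% and 11.8% away from promoters. Against the regions of all 4 lists away from promoters, the interval lay below for SP/KLF (7.64 to 12.2%, against 15.0 to 17.1%), while for AP-1 the intervals met (21.4 to 28.1% and 28.1 to 30.7%). These are 2 of the 18 motifs searched. At CK1750 UNC0638 scores of 50 to 100 the AP-1 shares were 23.4% (19.5 to 27.7%) and 26.3% (23.2 to 29.8%), and these intervals overlapped.

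Although the regions lacked a CK1750 DMSO peak themselves, the list often had one nearby. The nearest was a median of 5.33 kb away and lay within 1 kb for 156 regions (20.5%), within 5 kb for 368 (48.4%, 44.9 to 52.0%) and beyond 50 kb for 82 (10.8%). The regions missing only in CK1750 with UNC0638 had a peak of their missing list within 5 kb in 38.8% (34.8 to 43.0%) those missing only in Tnm2 with UNC0638 in 26.2% and those missing only in Tnm2 with DMSO in 50.3% (44.7 to 55.9%). The regions stood among other peaks, with a mean within 50 kb of 4.82 untreated and 4.59 treated CK1750 peaks and 6.35 untreated and 3.93 treated Tnm2 peaks, against 3.89, 3.63, 4.51 and 2.81 around regions in all 4 lists. For members away from coding starts, the nearest coding gene had a CK1750 DMSO peak at a TSS in 74.1% (500 of 675) and a CK1750 UNC0638 peak in 75.4%, close to the 74.4% and 73.9% of all merged regions away from coding starts and a little under the 77.3% and 76.8% of those in all 4 lists.

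The strongest regions with no CK1750 DMSO peak within 1 kb were ranked by the lowest of their 3 scores. One of the highest was at Zbtb7b, which encodes the zinc finger repressor ThPOK, at chr3:89386401-89388920, and scored 226.6, 786.69 and 430.29. It covered a downstream start of the gene, while the neighbouring region at the upstream start held peaks in all 4 lists (639.91, 698.8, 549.39 and 212.33, in the order CK1750 untreated and treated, then Tnm2 untreated and treated, as in all sets of 4 scores here). A further region of the set lay 2.49 kb from the nearest Zbtb7b start and scored 145.85, 218.35 and 66.05.

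Several of these strong regions neighboured genes of the cytoskeleton and of the cell surface. The region 3.94 kb from Cdc42ep2, an effector of the small GTPase Cdc42 that shapes actin, scored 221.96 in drug-treated CK1750 and, for Tnm2, 293.17 with DMSO and 197.17 with the drug. Introns of Ablim1 and Pdlim5, which encode actin-binding LIM proteins, held regions with 179.1, 226.02 and 183.4 and with 180.0, 168.55 and 192.61. The nearest starts of these genes were 38.6 and 51.3 kb away. A region in an intron of Cav1, the main coat protein of caveolae, scored 167.81, 467.15 and 354.83, and its nearest CK1750 DMSO peak, 7.44 kb away, covered the Cav1 promoter, which was marked in all 4 lists (404.7, 348.49, 121.44 and 91.49).
The other regions of this rank were near Mpeg1 (a pore-forming protein of phagocytes), Cd302 (a C-type lectin receptor), Atoh8 (a basic helix-loop-helix factor), Ppara (the lipid-sensing nuclear receptor, with the region 29.3 kb from its start and 0.295 kb from that of Mirlet7c-2), Gnaq (a G protein alpha subunit) and Rbfox2 (a splicing factor). Their lowest scores ran from 161.73 at Rbfox2 to 184.09 at Mpeg1, and their nearest CK1750 DMSO peaks from 1.45 kb at Mirlet7c-2 to 38.1 kb at Cd302.

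At coding promoters, 85 regions lay within 1 kb of a start of 86 genes. No CK1750 DMSO peak was found within 1 kb of any start of 63 of these genes, and 23 had one within 1 kb of a start, of which some lay next to the region itself (0.00200 kb away at Creld1 and 0.0940 kb at Mxd1). Over all coding genes with a start peak in the other 3 lists, 63 of 8171 had none in CK1750 with DMSO (0.771%, 0.603 to 0.985%), of which 59 were at the regions described here.

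The 10 highest ranked of these regions were at genes of varied function. Lypd2, of the Ly6/uPAR family, scored 155.12 in drug-treated CK1750 and, for Tnm2, 286.81 with DMSO and 166.03 with the drug. St6galnac2, a sialyltransferase, scored 139.52, 312.57 and 277.6. Ephx2, the soluble epoxide hydrolase, scored 157.57, 228.12 and 133.83. Neurl3, an E3 ubiquitin ligase, scored 129.01, 468.11 and 152.35, and Cidec, a lipid droplet protein, scored 145.08, 253.23 and 123.26. None of these 5 genes had a CK1750 DMSO peak at a start, whereas Zbtb7b and Ndel1, a dynein regulator with scores of 145.36, 248.12 and 160.06, had one.

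The remaining 3 of the 10 highest were Fam19a1 (155.24, 233.34 and 128.8), Cpq, a plasma carboxypeptidase (107.67, 559.43 and 282.13), and the mitotic kinase gene Haspin (133.02, 106.0 and 101.29). Haspin is a retrogene inside an intron of Itgae, and its region was 1 of 19 with a near-identical copy elsewhere in the genome (at least 80% of the region at 95% identity), so that reads of the copies can be placed at either. Further down, promoters without any CK1750 DMSO start peak, named after their values were seen, included those of Krt23 (a keratin), Liph and Klk10 (secreted enzymes of epithelia), Marveld2 (tricellulin), Itgb6 (the epithelial integrin beta 6), Gsta1, Akr1c12 and Xdh (enzymes of detoxification and purine breakdown), and Igfbp7 and Sema3b (secreted factors). Their lowest scores were 99.49 at Krt23, 76.7 at Itgb6 and 51.03 at Marveld2, and those of Klk10 (62.46) and Xdh (53.37) were also near the cutoff of 50. These genes were picked by hand from 63, which also include Pigt, Trp53bp1 and Cdc37. A common function was not tested. The Gsta1 region was also 1 of the 19 with a near-identical copy.

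The 760 regions lay singly in most cases. With a limit of 50 kb between neighbours there were 619 single regions, 54 pairs, 8 groups of 3, 1 of 4 and 1 of 5. The group of 5 extended over 90.1 kb at chr6:86579246-86669341, beside Asprv1, a protease of stratified epithelium, and ended at a start of Mxd1, a MYC antagonist. This stretch held 4 CK1750 peaks without the drug and 9 with it, and Tnm2 had 11 and 8. The rule gives each member a treated CK1750 peak and no untreated one. In this stretch and in those described below, the CK1750 counts therefore largely restate the rule and are no separate evidence of a gain. The 5 regions scored 66.92, 141.77, 86.72, 73.9 and 127.5 in CK1750 with UNC0638. The 4 peaks of CK1750 with DMSO scored 364.95, 184.25, 59.5 and 212.6, and each of these regions also had a CK1750 UNC0638 peak.

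The group of 4 was in Alcam, the adhesion molecule CD166, which held the most members in its body. Alcam had 2 untreated and 5 treated CK1750 peaks, and 17 and 10 in Tnm2. The 4 regions scored 52.38, 62.33, 69.17 and 112.09 in drug-treated CK1750 and, for Tnm2, 56.22, 175.86, 229.72 and 182.45 with DMSO and 86.93, 115.63, 81.17 and 66.93 with the drug. The last of them was at an Alcam promoter, next to a region that was marked in all 4 lists (107.89, 92.03, 70.65 and 54.28). A readthrough gene of 4435 kb, Gm20388, also contained 4, and 8 genes contained 3 each.

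Baiap2l1, an actin regulator of epithelial protrusions, held members with CK1750 UNC0638 scores of 103.77, 52.57 and 122.59, in a gene with 5 CK1750 DMSO and 8 CK1750 UNC0638 peaks; Bri3 overlaps it and contains the same regions. Grhl2, which encodes a transcription factor that maintains epithelial identity, also held 3. They scored 54.72, 129.65 and 100.87 in drug-treated CK1750 and, for Tnm2, 222.17, 82.84 and 169.48 with DMSO and 88.89, 131.11 and 103.97 with the drug. Between the last pair of these lay a region of the gene present in all 4 lists (716.24, 693.73, 549.51 and 135.58), and no list had a peak at a Grhl2 TSS.

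One group of 3 spanned 17.6 kb at chr15:74717665-74735220, from the neighbourhood of Them6 through the start of Slurp1 to the start of Lypd2, both genes of the Ly6/uPAR family. This group was singled out after its values were seen, because the family includes Ly6a. It held 1 CK1750 peak without the drug and 5 with it, which largely follows from the rule, and Tnm2 had 4 and 3. The region at Slurp1 scored 92.02, 95.78 and 89.57. At Ly6f, another member of the family, a region scored 85.5 in drug-treated CK1750 and, for Tnm2, 318.16 with DMSO and 139.91 with the drug. The region covering Ly6a itself had peaks in all 4 lists, at 2044.91, 1111.22, 146.15 and 52.03, and was not part of the set.

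**Figure D4:**
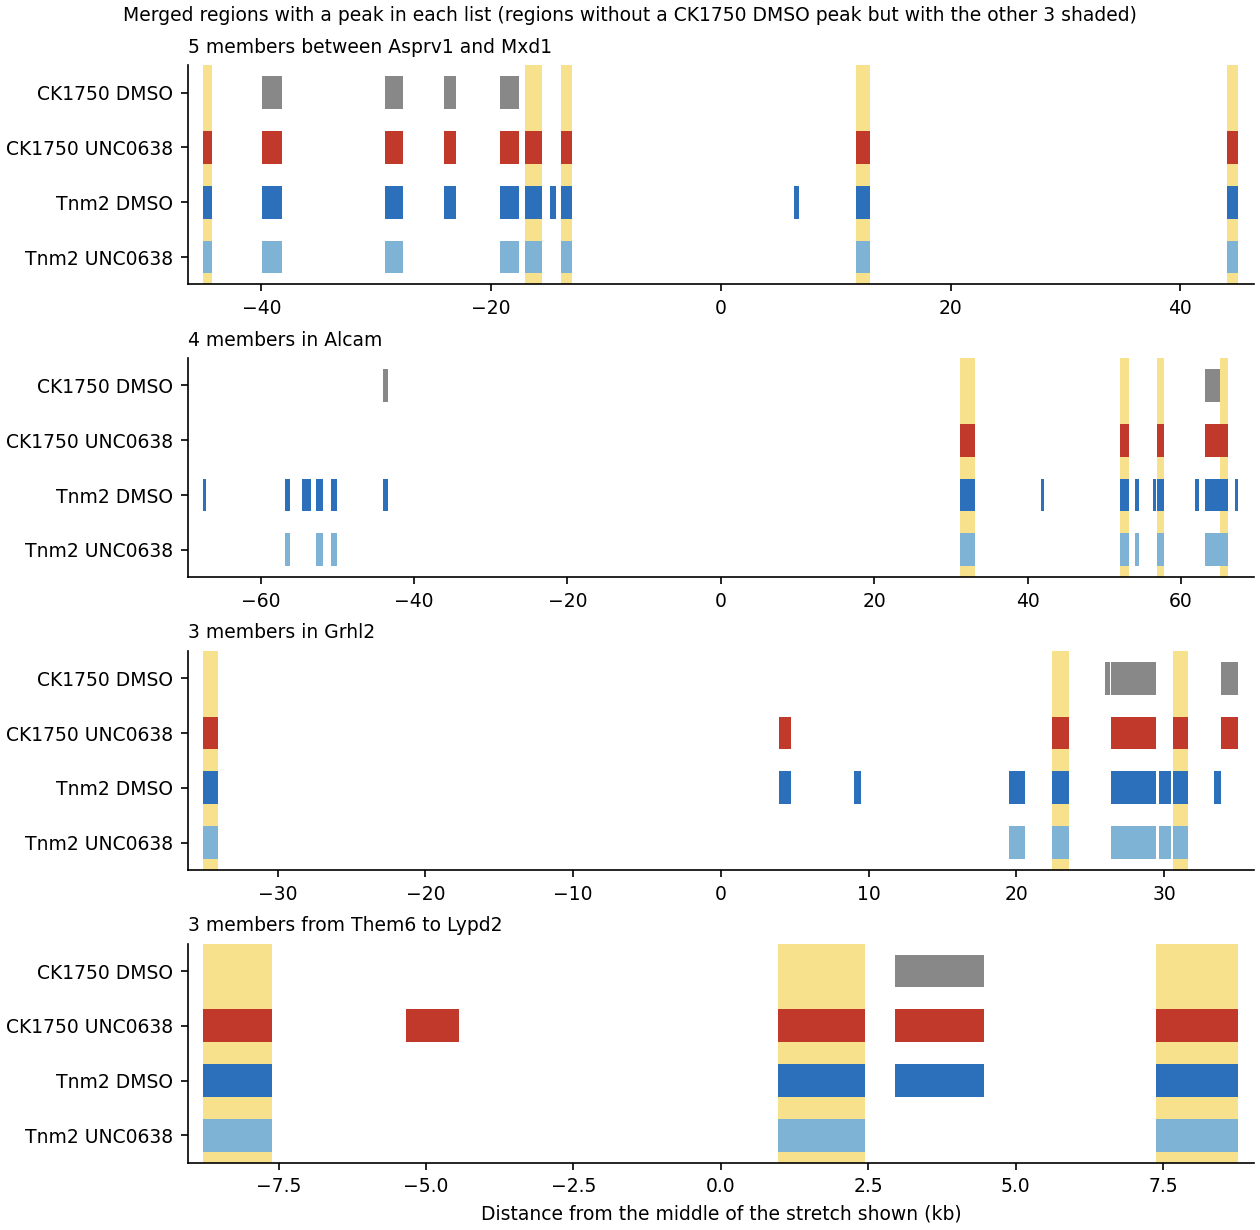
Merged regions in 4 stretches, drawn as distance from the middle of each stretch (kb), with a bar over the merged region in each row where the list had a peak. Yellow shading marks the regions of the set, which have bars in every row but that of CK1750 DMSO. The stretch between Asprv1 and Mxd1 holds 5, Alcam 4, Grhl2 3 and the stretch from Them6 to Lypd2 3.

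The regions were then set against 13 gene lists of lung cancer pathways. Of 21924 coding genes, 1442 (6.58%) had a member within 50 kb and 596 (2.72%) within 10 kb. Genes of integrins and cell-matrix adhesion had one within 50 kb in 11 of 29 cases, TGF-beta and BMP genes in 8 of 39, Notch genes in 4 of 22, genes of the epithelial and mesenchymal state in 5 of 29, extracellular matrix and protease genes in 8 of 54 and lung lineage transcription factors in 4 of 27. Ras and MAPK genes had 4 of 36, Wnt genes 4 of 36, cell cycle and p53 genes 2 of 32, and the lists of H3K9 enzymes, AP-1 genes, YAP/TEAD genes and G9a-linked genes of the study 1 each (of 18, 19, 25 and 10). The last list was taken from the study itself and is no independent evidence.
Such counts grow with gene length and with the number of acetylated regions around a gene. A region can also serve neighbouring genes, and Itga1 and Itga2 were counted through the same one. Adhesion genes had a median length of 82.5 kb against 17.4 kb for coding genes in general. Counted per region away from promoters within 50 kb, 7 of 65 regions around adhesion genes lacked the CK1750 DMSO peak (10.8%, 5.32 to 20.6%), against 551 of 4794 around coding genes in general (11.5%). For each of the 13 lists the interval included 11.5%.

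**Figure D5:**
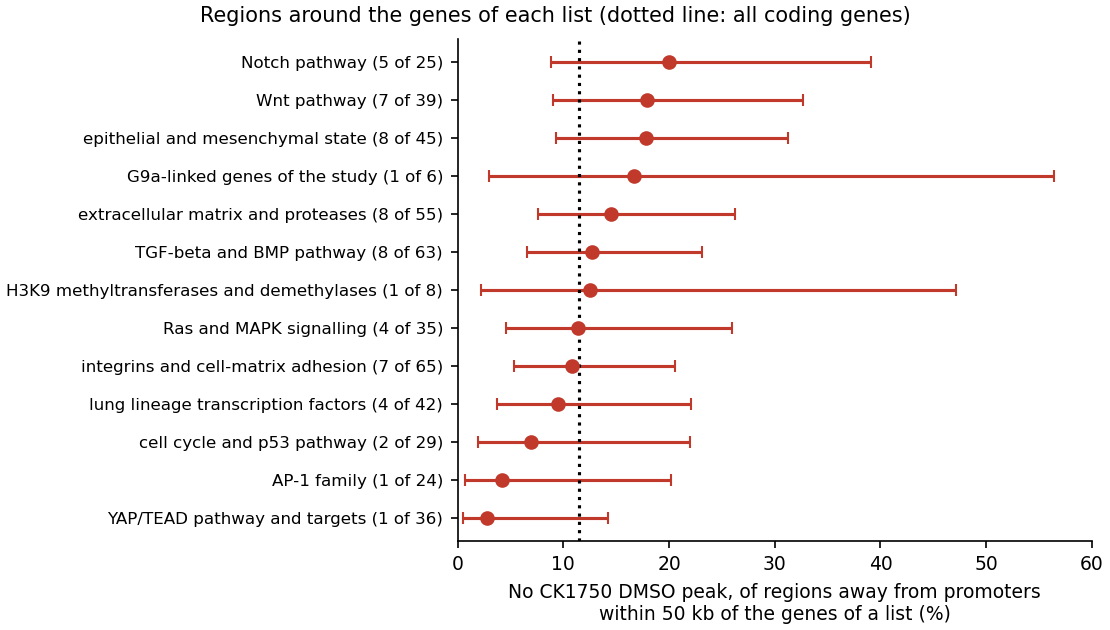
Share of regions away from promoters, within 50 kb of the genes of a list and with peaks in the other 3 lists, that lacked a CK1750 DMSO peak (horizontal axis, %), with Wilson 95% intervals and counts beside each list. The dotted line is the share around coding genes in general, 11.5%, and each of the 13 intervals includes it.

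Among the adhesion genes, the region in Tns1 (tensin 1, which links integrins to actin) scored 91.09 in drug-treated CK1750 and, for Tnm2, 737.36 with DMSO and 248.08 with the drug. Several neighbouring intronic regions had Tnm2 peaks and none of CK1750 with either treatment. A region at a start of Itgb6 scored 205.44, 95.24 and 76.7, while a nearby region in the gene had peaks in all 4 lists (182.41, 503.79, 257.25 and 177.9). The region in Pxn (paxillin) scored 75.34, 188.88 and 82.01, and the region 37.7 kb from Tln2 (talin 2) scored 144.24, 155.96 and 77.04. The nearest CK1750 DMSO peak was 0.629 kb from the Pxn region and 5.36 kb from that in Tns1. It was 16.5 kb away at Itgb6 and 28.7 kb away near Tln2.

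In the epithelial list, a region in an intron of Cdh3 (P-cadherin) scored 164.54 in drug-treated CK1750 and, for Tnm2, 204.33 with DMSO and 133.45 with the drug, with the nearest CK1750 DMSO peak 41.3 kb away. The same neighbourhood held a region 30.7 kb from Cdh1 (E-cadherin) and 13.2 kb from Cdh3 (98.95, 226.24 and 75.34). Another lay in a Cdh1 intron (93.78, 89.72 and 50.82), between other Cdh1 regions that were marked in all 4 lists. Krt19 had 2 within 8.81 kb (66.92, 112.97 and 85.17, and 132.0, 187.28 and 59.33). A CK1750 DMSO peak was much closer to these than to the Cdh3 intron region. The distances were 3.88 and 1.97 kb for the Cdh1 regions and 0.169 and 2.63 kb for those of Krt19.
For matrix genes, a region 4.30 kb from Col1a1, the fibrillar collagen gene, scored 110.98, 325.05 and 152.06, and one 30.7 kb from Spp1 (osteopontin) scored 172.06, 125.05 and 96.24. The region in Timp2, a metalloproteinase inhibitor, scored 102.38, 83.41 and 136.38. The nearest CK1750 DMSO peak was 20.1 kb away for Col1a1, 1.00 kb for Spp1 and 1.28 kb for Timp2.

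In the TGF-beta and BMP list the receptors Acvr1b (86.77 in drug-treated CK1750 and, for Tnm2, 278.03 with DMSO and 130.74 with the drug) and Acvr1 (85.13, 183.26 and 102.99) and the mediators Smad7 (96.66, 84.7 and 137.79) and Smad1 (77.62, 351.56 and 211.5) each had one, and each of these 4 genes had a start peak in all 4 lists. These regions lay beside CK1750 DMSO peaks. The distances were 0.0900 kb at Acvr1b, 1.63 kb at Acvr1, 0.569 kb at Smad7 and 1.25 kb at Smad1. In the Wnt list, Tcf7l2, the transcription factor of the pathway, held 3 in its introns with CK1750 UNC0638 scores of 84.3, 74.99 and 89.34, and the receptor gene Fzd2 had 2 within 50 kb (80.64 and 65.31). In the same order, the nearest CK1750 DMSO peak was 10.3, 10.9 and 0.650 kb away for Tcf7l2 and 5.38 and 2.53 kb for Fzd2.
Wnt7a, also among the G9a-linked genes of the study, had a region 5.44 kb away that scored 96.32, 98.87 and 128.82, and no start peak in any list. Dkk3, a secreted Wnt modulator, had one 49.0 kb away (69.42, 55.24 and 61.3).
Notch2, a receptor, had one 47.1 kb away (179.01, 258.61 and 80.76), the target Hes1 one at 9.89 kb (66.05, 89.36 and 101.53), the coactivator Maml2 2 in its body (132.97 and 96.9 in CK1750 with UNC0638), and the feedback inhibitor Nrarp one at 7.16 kb (301.37, 116.26 and 55.62).

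Among the lung lineage factors, a region 21.4 kb from Cebpa scored 123.96 in drug-treated CK1750 and, for Tnm2, 554.88 with DMSO and 277.5 with the drug. Regions in Foxp1 (70.37, 140.13 and 64.62) and Hnf4a (58.7, 60.44 and 94.44) and 16.8 kb from Cebpb (62.51, 317.15 and 86.76) were weaker. The nearest CK1750 DMSO peak was 1.55 kb from the Cebpa region. For Foxp1, Hnf4a and Cebpb it was 16.2, 2.75 and 8.88 kb away. Of the feedback regulators of Ras and MAPK signalling, Dusp5 had one 23.2 kb away (188.26, 90.71 and 70.3) and Spry1 one 42.2 kb away (65.56, 182.34 and 57.3). Sos1, the Ras exchange factor, held one in an intron (63.7, 98.44 and 102.71) and the scaffold gene Ksr1 had one 10.4 kb away (64.14, 103.47 and 54.58). The Sos1 region was 0.364 kb from a CK1750 DMSO peak. Those of Dusp5, Spry1 and Ksr1 were 7.54, 11.5 and 16.7 kb from one.
Wwc1 (KIBRA, upstream of YAP) held a region with 144.38, 407.06 and 191.16, and Phf2, a histone demethylase gene, one with 157.47, 146.92 and 69.86. Maff had one 41.5 kb away (78.22, 116.04 and 51.76), Ccnd1 (cyclin D1) one at 1.32 kb (177.49, 127.22 and 56.61) and Pmaip1 (Noxa) one at 15.1 kb (53.97, 212.24 and 107.15). A CK1750 DMSO peak lay 0.530 kb from the Wwc1 region and 0.782 kb from that of Maff. For Phf2, Ccnd1 and Pmaip1 the nearest was 4.85, 3.95 and 14.6 kb away.

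By chromosome, the share of regions lacking the CK1750 DMSO peak ran from 1.70% on chromosome 10 (9 regions, 0.899 to 3.21%), 2.02% on chromosome 4 (13 regions) and 2.32% on chromosome 12 (9 regions) to 7.51% on chromosome 18 (35 regions), 7.56% on chromosome 6 (67 regions) and 8.29% on chromosome 15 (61 regions). At CK1750 UNC0638 scores of 50 to 100 the shares were 6 of 30 regions on chromosome 10, 14.5% on chromosome 4 (8 of 55), 23.7% on chromosome 12 (13.0 to 39.2%), 32.5% on chromosome 6 (37 of 114), 37.3% on chromosome 15 (38 of 102) and 43.1% on chromosome 18 (25 of 58). In the mirror case the chromosome shares ran from 1.70% on chromosome 3 to 6.43% on chromosome 19, and those of chromosomes 4 and 15 were 4.10% and 3.98%.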

How the data were processed

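H3K27ac ChIP-seq of 9 samples in 4 groups was used. The 21 other samples (H3K9me2 and input, 8 groups) were not analysed here. According to the labels and the study's methods, the authors aligned reads to mm10 with Bowtie2, handled them with SAMtools and called peaks in MACS 1.4.2, for which P had to be under 1e-05. The deposited values are peak positions with a score (the negative log10 of P, times 10), in 1 list per group. Which libraries entered a list, the use of an input control and read depth are not given in the sources used here.

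Peaks on chromosomes 1 to 19 and X were merged when they overlapped or touched, and coordinates are 1-based. Start sites came from GENCODE M 21 (77200 positions, 21924 coding genes), sequences from GRCm38.p6 and the RefSeq promoter table, and near-identical copies from minimap2 2.31-r1302. Counting used Python 3.11.15, pandas 2.3.3, numpy 2.4.6, scipy 1.17.1 and pysam 0.24.0, and was tested on simulated data. Shares carry Wilson 95% intervals, with no test, because a group had 1 list. Named were the 12 regions with the highest lowest score and no CK1750 DMSO peak within 1 kb, the 10 highest coding promoters, up to 4 genes per list, the longest run of members and the genes holding the most. A few of the items this rule names are not reported here. The members and lists were chosen with earlier results of these data known. Alternatives changed the score cutoff, distance, merging, list length, overlap, chromosomes and windows.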

Additional observations from a re-analysis of the deposited data

How the results depend on the processing

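Of 67 alternative values for 9 results, 41 were counted as close to the main one and 26 as moved. The results are counts, shares and medians without a direction, so none could be reversed. The change allowed also differed between results. A number of 582 regions against 760 counted as close, and a width of 1298 bases against 1148 as moved. The tally is therefore no measure of stability. The values counted as close include 604 regions and 41 list genes with no CK1750 DMSO peak within 1 kb. They also include 582 regions and 42 list genes with peaks within 1 kb merged. Use of all sequences gave the same 760 regions, so its values could not differ. With a score of at least 100 in the 3 lists with a peak, 87 regions were left, with 19.5% at promoters, a median width of 1573 bases, 49.7% GC, percentile 13.6, AP-1 in 18.4% and 6 list genes within 50 kb. With that score in all 4 lists there were 347, with 21.3% at promoters, 1627 bases, percentile 20.2, a CK1750 DMSO peak within 5 kb in 87.9%, a nearest gene with a CK1750 DMSO start peak in 73.5% and 29 list genes. By construction, CK1750 DMSO peaks under 100 then count as absent and still as near, and percentiles are those of the filtered lists. With the 18789 highest peaks of each list, 19.3% were at promoters, the width was 1400 bases, the percentile 20.6, the near share 82.2% and the nearest-gene share 74.8%. Here too the CK1750 DMSO peaks left out count as absent and still as near or at a start, which raises these 2 shares. Requiring no CK1750 DMSO peak within 1 kb gave a near share of 35.1%, which the requirement itself lowers. Merging peaks within 1 kb gave 1298 bases, 29.4% near and AP-1 in 26.1%. A promoter window of 2.5 kb gave 22.4%, a motif window of 300 bases AP-1 in 14.6%, and a gene window of 10 kb 34 list genes. The main values were 760 regions, 15.9% at promoters, 1148 bases, 49.0% GC, percentile 25.5, 48.4% near, AP-1 in 22.5%, a nearest-gene share of 68.8% and 53 list genes. Here the AP-1 and nearest-gene shares are over all 760 regions. The 24.6% and 74.1% given above left out promoters and coding starts. At coding starts the rule itself takes away CK1750 DMSO peaks, which lowers the 68.8%. No paired analysis was possible because each group had 1 pooled list, and for the same reason no replicate could be left out. The CK1750 UNC0638 score was under 75 in 38.4% of the regions and under 100 in 64.1%, with a cutoff of 50 and unknown depth, so absence of a peak is not absence of the mark.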
